A study of Mus musculus with 47 samples.

Results

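Organoids of Apc Min mice on the C57BL/6 (B6) background were compared with and without 5-aza-cytidine (AZA), to describe which genes the drug moved. The libraries were taken by their labels alone, as 2 AZA and 2 control libraries, which are 4 of the 47 libraries of the series and its only B6 organoid libraries used here. Both groups share the strain, the genotype (labelled APC min, an Apc allele that induces intestinal adenomas) and the age of 15 to 19 weeks, and by their labels they differ in treatment alone. The dose and duration of AZA, the treatment of the control cultures, the sex of the mice and the tissue from which the organoids were grown are not given in the sources used here. Replicates are numbered, but no label says whether they come from different mice or culture wells. The tests therefore weigh differences against the spread among these libraries only, which may be technical. The series also holds 39 tissue libraries and 4 organoid libraries of C5, a C57BL/6 line in which chromosome 5 was replaced by that of PWD (a consomic strain). The C5 organoids had the same genotype, age and treatments.

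5-Aza-cytidine is an analogue of cytidine that cells take up through nucleoside transporters and phosphorylate with uridine-cytidine kinases. Most of it enters RNA, and a part is reduced by ribonucleotide reductase and enters DNA, where it traps DNA methyltransferases such as DNMT1, which copies methylation to the new strand after replication. Silenced germline genes and repeats can then be transcribed, and double-stranded RNA from repeats can be bound by the sensors RIG-I and MDA5, which switch on interferon genes. Intestinal organoids hold crypt epithelium, in which Wnt-driven Lgr5 stem cells divide and give rise to absorptive enterocytes and to goblet, Paneth, enteroendocrine and tuft cells. APC restrains Wnt signalling in these cells.

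Values are read counts per gene, given here as CPM, the count scaled to a common library total after TMM normalisation. Counts assigned to genes were 6788600 and 6650838 in the controls and 6121254 and 6037109 under AZA. Reads assigned to no gene made up 46.4% and 49.8% of all counted reads in the controls and 58.1% and 55.5% under AZA. The B6 groups thus did not overlap in this share, whereas the C5 control and AZA libraries did. Its part in the results was not tested. Genes with at least 1 count numbered 13575 and 14606 in the controls and 16979 and 15114 under AZA. The organoid label was checked against markers. Cdh1, the epithelial cadherin, and Cdh17, the cadherin of intestinal epithelium, had at least 5167 counts in each library, and neither was called. The 5 other epithelial markers were present and moved, with Krt8, Krt18 and Vil1 called higher and Epcam (14814 and 15001 counts in the controls, 8885 and 9542 under AZA) and Cdx2 called lower. The call of Epcam (log2 change -0.45, adjusted p = 0.0401) was lost without any 1 of the 4 B6 libraries, with DESeq2 size factors and with the stricter filter of 50 counts, and that of Krt8 without the first control or the first AZA library. Of 15 defining markers of fibroblasts, smooth muscle, endothelium and immune cells, Col3a1, Des and Cd79a had no counts in any of the 4 libraries and the highest count of any other was 18. Such bulk libraries cannot tell fewer cells of a type from less RNA per cell.

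AZA moved 2156 of 13395 tested genes (16.1%) past an adjusted p of 0.05 in edgeR's quasi-likelihood test with Benjamini-Hochberg adjustment, 1231 higher (9.19%) and 925 lower (6.91%). These shares of all genes are the background for each count of list members given below. The rises were the larger changes. Of the genes called, 281 rose over 8-fold and 20 fell over 8-fold, and 65 rose and 0 fell over 32-fold. The median log2 change of all genes tested was 0.05. Scaling by the total gene count alone, without TMM, gave 1081 higher and 1277 lower, so that 45.8% of the calls were higher in place of 57.1%. Without the first control library 1149 genes were called, and without the second 1274. Of the genes called both in the fit given here and in another fit, 0 changed direction between them. The directions of genes called here but not in the other fit are not part of this count. Both AZA libraries stood above both controls in 4281 of the genes tested (32%) and below both in 3884 (29%).

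**Figure D1:**
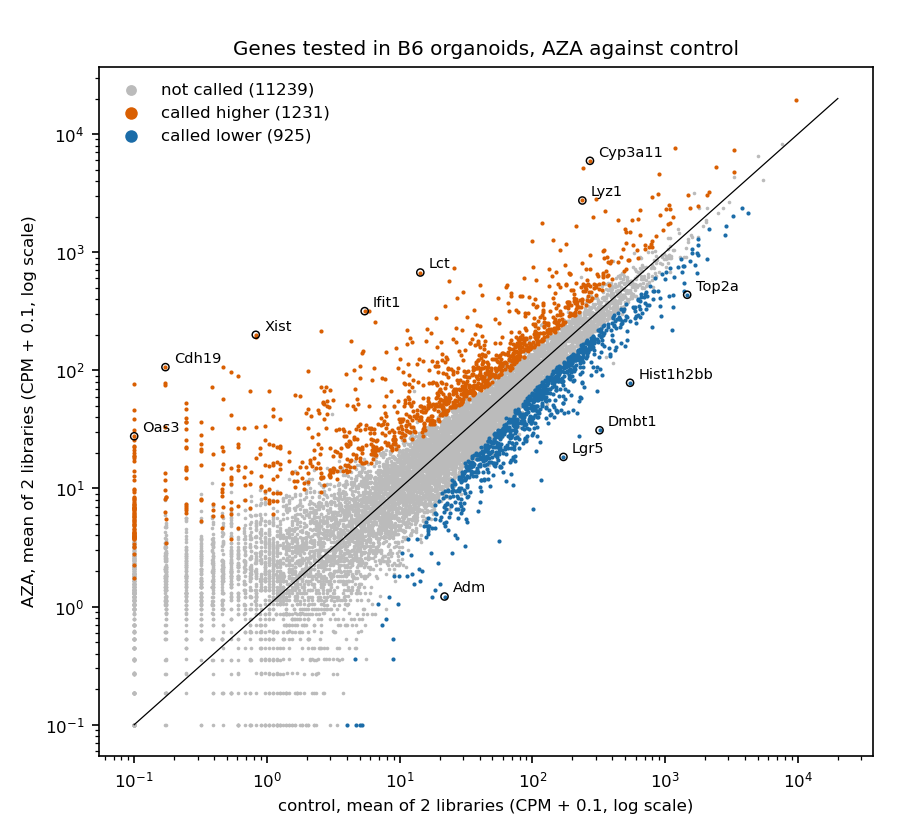
Mean CPM of each tested gene in B6 control organoids (horizontal) and AZA organoids (vertical), both on log scales with 0.1 CPM added, 2 libraries a group. The line marks equal values, and the 1231 genes called higher reach farther from it than the 925 called lower.

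Of the genes that handle the drug and the methyl mark, most were not called, and more were called lower than higher. Of 28 genes of nucleoside uptake and activation, all of them tested, 1 was called higher (3.6%) and 6 lower (21.4%), with a median log2 change of -0.38. Over all genes tested the shares were 9.19% and 6.91%. Without the second control 3 were called lower and 0 higher, and without the second AZA library 4 and 0. Rrm1, the large subunit of ribonucleotide reductase, stood at 388 and 377 CPM in the controls and 134 and 139 CPM under AZA, a log2 change of -1.49 (SE 0.21, adjusted p = 2.21e-04). Uck2, the kinase that adds the first phosphate to 5-aza-cytidine, went from 107 and 93.9 CPM to 43.4 and 49.5 CPM (-1.11, adjusted p = 0.00208). Dut, the enzyme that removes dUTP, went from 90.6 and 83.3 to 24.9 and 38.1 CPM (-1.46). In these 3 genes each AZA library lay below each control, as in 14 of the 28 genes and in 29% of all genes tested. In 4 of the 28 each AZA library lay above each control. The other members called lower were Rrm2 (-1.04), Dctd (-1.73) and Ctps (-1.15), which also make deoxynucleotides or their precursors, and the member called higher was Cmpk1 (0.71), a kinase of pyrimidine monophosphates. These 4 calls were lost without the second control and also without the second AZA library, or for Ctps the first, with adjusted p-values over all fits up to 0.126 for Rrm2, 0.223 for Dctd, 0.198 for Ctps and 0.121 for Cmpk1. The change of Dctd was -2.65 without the first AZA library. Slc29a1, the main equilibrative nucleoside transporter, read 14.5 and 17.4 CPM in the controls and 8.03 and 2.76 CPM under AZA and was not called (adjusted p = 0.0502), but passed with total-count scaling (0.0330), with no filter on low counts (0.0246) and without the first AZA library (0.0108). Cda, the deaminase that inactivates the drug, read 15.7 and 21.5 CPM in the controls and 29.4 and 31.5 CPM under AZA and was not called (adjusted p = 0.189).

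Among 21 tested genes of DNA methylation and its readers, 0 were called higher and 5 lower, with a median of -0.37. The 5 were 23.8% of those tested, against 6.91% of all genes. Dnmt1, the maintenance methyltransferase, had 228 and 248 CPM in the controls and 116 and 76.7 CPM under AZA, a log2 change of -1.30 (SE 0.23, adjusted p = 0.00125). Hells, a chromatin remodeller needed for DNA methylation, had 218 and 191 CPM in the controls and 83.2 and 82.7 CPM under AZA (-1.30, adjusted p = 4.47e-04). The calls of both held whichever of the 4 libraries was left out, whereas the 3 other calls did not. Uhrf1 (-0.94), the partner of DNMT1, lost its call without either control or the first AZA library, Mbd3 (-0.92) without either control or the second AZA library, and Mbd4 (-1.78) whichever of the 4 was left out, with adjusted p-values up to 0.149, 0.243 and 0.112. Leaving out either control left 2 of the list's calls, and leaving out either AZA library left 3. The de novo enzyme Dnmt3a stood at 87.1 and 85.8 CPM in the controls and 90.6 and 104 CPM under AZA and was not called (adjusted p = 0.628). Of 29 tested factors of heterochromatin and silencing, 1 was higher and 13 lower, with a median of -0.59, and 7 were called lower without either control and 6 without the first AZA library. In the fit given here the 13 lower were 44.8% of those tested, against 6.91% of all genes. Trim28, which recruits silencing complexes to retroviral elements, went from 171 and 165 to 89 and 84.3 CPM (-0.95, adjusted p = 0.00124). Ezh2, the histone methyltransferase of Polycomb, went from 167 and 169 to 73.1 and 86.3 CPM (-1.07). Suv39h2 went the other way, from 25.2 and 28 to 135 and 215 CPM (2.70, adjusted p = 3.14e-06), and is a histone H3K9 methyltransferase with its highest known expression in testis.

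The largest rises were in genes that controls barely expressed. Cdh19, a cadherin gene on chromosome 1 (chr1:110888002-110977601), had 1 and 0 counts in the controls and 639 and 600 under AZA, a ratio of 1470.5 with a 95% counting interval of 263 to 58127. The long noncoding RNA gene AI662270 (chr11:83223576-83226584) had no counts in either control and 400 and 494 under AZA, which is at least 354-fold higher against a floor of 3 counts over the control group. Clu, which encodes clusterin and marks regenerating intestinal cells, had 1 and 0 counts against 638 and 271, a ratio of 1079 (interval 193 to 42657), and its fitted log2 change of 7.68 was 6.96 without the first AZA library. These intervals and floors cover counting error only. Slc47a1, a transporter of drugs and other organic cations, had 1 and 0 counts against 442 and 440 (ratio 1047, interval 187 to 41392). Serpinb1c, a protease inhibitor gene, rose from 0.288 and 1.16 CPM to 189.8 and 190.3 CPM, a log2 change of 7.53 (8.31 without the second control). Nes, the intermediate filament nestin, rose from 0 and 0.726 to 124 and 88.1 CPM (7.31, 6.67 without the first control and 8.41 without the second control), and Slc5a12, a lactate transporter, from 0 and 0.871 to 146 and 45.8 CPM (7.02, 6.34 without the first control and 8.27 without the second control and 5.97 without the first AZA library and 7.62 without the second AZA library). Tmprss15, the enteropeptidase of the duodenal brush border, had 1 count in each control and 437 and 177 under AZA. These genes were taken among called genes whose groups did not overlap, so their lack of overlap was set by the choice.

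Xist, the noncoding RNA that coats the inactive X chromosome in female cells, was among the strongest rises. It lies at chrX:103460373-103483233 and read 0.288 and 1.16 CPM in the controls and 178 and 221 CPM under AZA, a log2 change of 7.60 (SE 0.39, adjusted p = 3.20e-08), and of 8.38 without the second control. The Y-linked gene Eif2s3y was present in each library, at 269 and 277 CPM in the controls and 219 and 220.1 CPM under AZA, and was not called (adjusted p = 0.331). Uty, another Y-linked gene, read 70.1 and 89.4 CPM in the controls and 107 and 110.1 CPM under AZA and was not called either (adjusted p = 0.202). Xist is overlapped by the antisense gene Tsix, and the strand setting of the counting is not given in the sources used here. Of 406 tested genes on the X chromosome, 29 were higher (7.14%) and 41 lower (10.1%), against 9.19% and 6.91% of all genes tested.

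Genes without any count in both controls and with at least 10 in both AZA libraries numbered 126, and 8 genes had the mirror pattern. With a minimum of 20 counts the numbers were 52 and 2, and with a minimum of 5 they were 313 and 42. Of the 126 genes, 69 were called higher by the test. In the 9 B6 tissue libraries 47 had counts in all and 12 in none. In C5 organoids, 54 also reached 10 counts in both AZA libraries, but only 24 of the 126 had no counts in the controls. Pet2 (chrX:89403848-89409689), an X-linked gene of the testis, had 277 and 259 counts under AZA, at least 212-fold above the controls, and no count in any of the 9 B6 tissue libraries. Mbl2, the mannose-binding lectin of the complement pathway, had 174 and 186 counts (at least 142-fold). Tm4sf1, a tetraspanin-like surface protein, had 192 and 105 counts (at least 117-fold). The other genes among the 10 with the highest summed counts under AZA were AI662270, Xaf1, Oas3, Gm2373, H2-M2, Clvs1 and Slc25a21, with bounds from 92.2-fold to 353.7-fold. In the mirror set the highest summed count was the 70 of Urad, a gene of urate breakdown, with 32 and 38 counts in the controls. Its call (adjusted p = 0.0493) was lost whichever of the 4 libraries was left out, with adjusted p-values up to 0.182.

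A part of the germline genes rose. Of 58 listed, 28 had too few counts to test, and of the 30 tested 10 were higher and 0 lower, with a median log2 change of 1.93 (1.94 with genes at no counts set to their bounds). The 10 higher were 33.3% of those tested, against 9.19% of all genes. Of the 30, 10 had no counts in either control. Such genes can only be higher or remain at 0, and members low in every library were not tested, so the absence of lower calls and the median are partly set by the low starting level and the filter. Without the first control or without the second AZA library 6 were called. Tex19.1, which protects the germline from retrotransposons, had 1 and 0 counts in the controls and 105 and 51 under AZA, a ratio of 185 (interval 32.7 to 7359). Mov10l1, an RNA helicase of the piRNA pathway, had no counts in the controls and 58 and 50 under AZA, at least 42.7-fold higher. Asz1, another piRNA pathway gene, stood at 0 and 2.03 CPM in the controls and 51.1 and 42.9 CPM under AZA (log2 change 5.16, adjusted p = 6.34e-04), though DESeq2 gave it an adjusted p of 0.0698. The change of Asz1 was 4.33 without the first control and 7.24 without the second control. Rec8, the meiotic cohesin subunit, rose from 14 and 8.85 to 56.7 and 61.2 CPM (2.34). The X-linked gene Trap1a, a tumour rejection antigen, had 12 and 0 counts in the controls and 177 and 215 under AZA. Its log2 change of 4.85 was 6.76 without the first control and 4.06 without the second control. Dazl (0 counts in both controls, at least 32.4-fold higher), Stag3 (ratio 46.9, interval 12.6 to 394) and the X-linked Magea3 (at least 26.1-fold) also passed the threshold, and lost their calls whichever of the 4 libraries was left out (adjusted p up to 0.104, 0.186 and 0.264). Piwil2 (2.20) and Tuba3a (at least 31.3-fold) lost theirs without either control or the second AZA library (adjusted p up to 0.212 and 0.110). The meiotic genes Sycp3 and Syce2 read -1.16 and -0.61 on the log2 scale and were not called.

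The 2 germline promoters below are shown because their genes were silent or nearly so in the controls. Their windows hold CpG, the dinucleotide that DNMT1 methylates. Over longer windows, from 250 bases before the start to 50 after, all tested genes with a window (79.2%) had a median of 20 CpG. Those called higher (79.6% with a window) had a median of 13 and those called lower (82.9%) 23. Since 2 of these shares were under the minimum of 80%, no comparison was drawn. Each line holds the 150 bases before the start of the gene on its own strand, 5′ to 3′, from RefSeq on GRCm38.p6, with every CpG in capitals. Asz1 lies on the minus strand (chr6:18109062-18109211, 12 CpG) and Tex19.1 on the plus strand (chr11:121145993-121146142, 9 CpG). The expression data hold no measure of methylation at these bases.
Asz1: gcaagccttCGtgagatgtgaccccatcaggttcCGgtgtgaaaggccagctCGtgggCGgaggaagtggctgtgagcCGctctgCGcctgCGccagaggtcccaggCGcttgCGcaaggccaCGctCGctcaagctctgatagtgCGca
Tex19.1: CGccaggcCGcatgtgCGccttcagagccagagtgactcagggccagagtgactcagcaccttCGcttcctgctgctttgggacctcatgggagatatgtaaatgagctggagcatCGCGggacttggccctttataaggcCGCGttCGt

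Few imprinted genes were called. Of 28 tested, 2 were higher (7.14% of them, against 9.19% of all genes) and 0 lower (6.91% of all genes), with a median of 0.30, and 1 was higher without either control. Igf2, the fetal growth factor expressed from the paternal allele, rose from 1.15 and 1.74 to 17.6 and 9.82 CPM (3.0, adjusted p = 0.00224). Of 21 tested genes from a list of loci often silenced by methylation in colon tumours, 1 was higher (4.8%) and 3 lower (14.3%). Over all genes tested the shares were 9.19% and 6.91%. Fewer members were lower without the first control or either AZA library. Thbs1, the angiogenesis inhibitor thrombospondin 1, was the riser, from 2.88 and 2.03 to 88.5 and 56 CPM (4.71). Slit2, an axon guidance ligand, fell from 39.2 and 42.5 to 4.96 and 14 CPM (-2.08, -2.98 without the second AZA library).

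Interferon-stimulated genes formed the group with the largest median rise among those counted here. Of 47 listed effectors, 44 were tested, and 38 were higher, 1 lower and 5 not called, with a median log2 change of 4.10 against 0.05 for all genes. The summed level of all 47 listed was 1252 and 1327 CPM in the controls and 5198 and 6458 CPM under AZA. In 43 of the 44 each AZA library lay above each control, as in 32% of all genes tested. The number called higher ranged from 35 to 43 over the other fits.

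Sensors of foreign RNA rose in the same libraries. Ddx58, which encodes the sensor RIG-I, stood at 24.3 and 16.3 CPM in the controls and 162 and 186 CPM under AZA, a log2 change of 3.08 (SE 0.25, adjusted p = 1.33e-06). Ifih1, which encodes the sensor MDA5, went from 71.7 and 61.5 to 258 and 375 CPM (2.24), and the related Dhx58 from 4.75 and 4.21 to 41.4 and 98.1 CPM (3.87, 3.10 without the second AZA library). Of the transcription factors of the interferon response, Irf9 went from 7.35 and 7.11 to 82.2 and 88.9 CPM (3.51), and Irf7, which drives interferon transcription, from 1.15 and 7.69 to 85.8 and 114 CPM (4.41, 3.64 without the first control and 6.10 without the second control). In these 5 genes both AZA libraries lay above both controls. So they did in 20 of the 27 tested sensors and regulators and in 32% of all genes tested. Of the 27, 2 lay below and 5 overlapped. In all, 11 of 27 tested sensors and regulators were higher and 0 lower, with a median of 0.90. The adaptor Mavs (log2 change 0.18, adjusted p = 0.717), the receptor subunit Ifnar1 (0.53, adjusted p = 0.139) and the kinase Tyk2 (0.62, adjusted p = 0.212) were not called. The ligands themselves were near or at 0. Ifnb1 had 4 counts in the first AZA library and none in the other 3, and Ifnl2 and Ifnl3 had none in any.

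Among the effectors, Ifit1, which binds viral RNA lacking host cap marks, read 4.90 and 5.81 CPM in the controls and 208 and 426 CPM under AZA (log2 change 5.81, SE 0.65, adjusted p = 2.61e-05, 5.19 without the second AZA library). Ddx60, a helicase that aids the sensors, read 3.31 and 8.27 CPM in the controls and 247 and 388 CPM under AZA (5.70, 6.45 without the second control). Parp14, an ADP-ribosyltransferase, read 13.8 and 8.85 CPM in the controls and 180.1 and 259 CPM under AZA (4.24, adjusted p = 8.60e-07). The second AZA library was the higher one in all 3. Oas3, which makes the activator of RNase L, had no counts in the controls and 141 and 180 under AZA, at least 127-fold higher. Isg15, a ubiquitin-like modifier, had 2 and 0 counts in the controls and 95 and 159 under AZA, a ratio of 151 (interval 41.3 to 1251). Rsad2, which encodes viperin, read 0 and 0.726 CPM in the controls and 56.6 and 57.4 CPM under AZA (6.41, 5.78 without the first control and 7.51 without the second control), and Xaf1, a proapoptotic interferon target, had no counts in the controls and 192 and 258 under AZA. Ifitm2 was the single effector called lower, from 23.8 and 24.7 to 2.90 and 11.4 CPM (-1.72, adjusted p = 0.0323), a call that was lost without either control or the first AZA library (-1.07 without the first AZA library and -2.95 without the second AZA library).

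Promoters of 4 effectors are shown because they hold the short repeat that interferon-activated STAT and IRF factors bind. The motif searched was GAAANNGAAA on both strands, so that a match on the other strand reads TTTCNNTTTC, and matches may overlap. It was found in the 250 bases before the start in 978 of 32851 RefSeq promoters (2.98%). Each line gives the 150 bases before the start, 5′ to 3′ on the strand of the gene (GRCm38.p6), with matches in capitals. Ifit1 has 2 matches (chr19:34640739-34640888, plus strand), Isg15 has 3 that overlap (chr4:156200819-156200968, minus strand), and Oas3 (chr5:120777660-120777809, minus strand) and Rsad2 (chr12:26456453-26456602, minus strand) have 1 each. The start used for Oas3 lies inside the span that RefSeq gives the gene elsewhere. Of the 150 bases, 25 therefore fall inside that span, none of them in the match. A match describes the letters and does not show binding. The genes were chosen for these matches, so that they say nothing of how often the motif occurs among effectors.
Ifit1: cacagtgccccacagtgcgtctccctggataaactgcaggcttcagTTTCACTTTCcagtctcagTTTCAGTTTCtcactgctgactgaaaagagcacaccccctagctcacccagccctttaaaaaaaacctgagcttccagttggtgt
Isg15: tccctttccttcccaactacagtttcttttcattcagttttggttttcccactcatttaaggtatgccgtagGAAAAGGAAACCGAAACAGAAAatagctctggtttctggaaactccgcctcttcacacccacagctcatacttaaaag
Oas3: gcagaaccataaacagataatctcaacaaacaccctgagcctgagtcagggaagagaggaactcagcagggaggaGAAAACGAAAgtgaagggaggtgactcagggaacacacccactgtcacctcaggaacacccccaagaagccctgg
Rsad2: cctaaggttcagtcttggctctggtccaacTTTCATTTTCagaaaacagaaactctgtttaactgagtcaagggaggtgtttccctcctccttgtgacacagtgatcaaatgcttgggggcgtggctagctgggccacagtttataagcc

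Most genes of antigen presentation on MHC class I rose as well. Of 21 tested genes 13 were higher (61.9%, against 9.19% of all genes) and 0 lower, with a median of 1.78. Tap1, a subunit of the peptide transporter, went from 5.91 and 6.24 to 64.2 and 102 CPM (3.71, adjusted p = 1.73e-05). Psmb8, a subunit of the immunoproteasome, went from 2.16 and 3.34 to 63.1 and 47.7 CPM (4.19), and B2m, the shared light chain, from 148 and 166 to 621 and 459 CPM (1.78). The heavy chain gene H2-K1, which has close relatives that can share reads, went from 388 and 327 to 737 and 659.9 CPM (0.97). In these 4 both AZA libraries lay above both controls, as in 17 of the 21 tested and in 32% of all genes tested. Of the 21, 2 lay below and 2 overlapped. Of 6 tested class II genes 3 were higher and 0 lower, with a median of 2.75 (2.94 with genes at no counts set to their bounds). Without the first control or the first AZA library 1 was called and without the second control 2, 1 was called with a filter of 50 counts, and 3 of the 6 had no counts in the controls. Ctss, the protease that trims the invariant chain, went from 42.1 and 45.3 to 179 and 176 CPM (2.01), whereas Ciita, the master regulator of class II, had no counts in the controls and 28 and 9 under AZA and was not called in edgeR (adjusted p = 0.0801) but was in DESeq2 (0.0141).

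**Figure D2:**
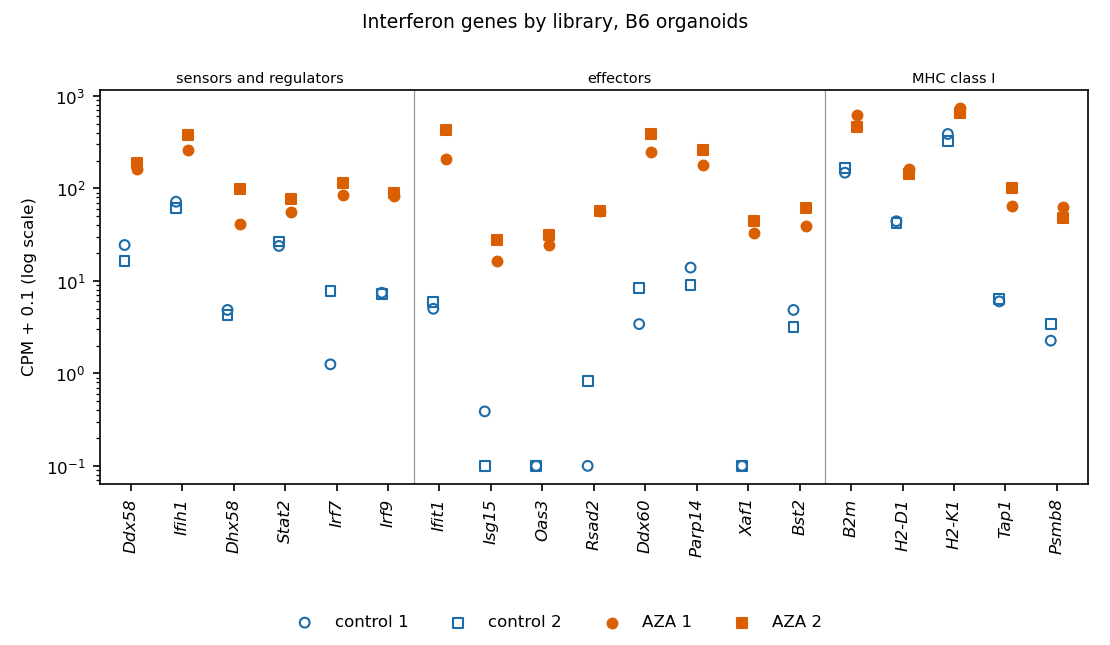
CPM with 0.1 added, on a log scale, of interferon and MHC class I genes in each B6 organoid library (open blue marks controls, filled orange marks AZA, circle and square the replicate number). The 19 genes were picked for display, some after their values were seen, and in each both AZA libraries lie above both controls. Over the full lists this held for 20 of 27 tested sensors and regulators, 43 of 44 effectors and 17 of 21 class I genes. Among all genes tested it held for 32%. Oas3 and Xaf1 had no counts in the controls.

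Most genes of the dividing cell fell. Of 49 tested cell cycle genes, 2 were higher (4.1%), 29 lower (59.2%) and 18 not called, with a median of -1.29. Over all genes tested the shares were 9.19% higher and 6.91% lower. Mki67, the proliferation antigen Ki-67, stood at 1513 and 1240.2 CPM in the controls and 442 and 491 CPM under AZA, a log2 change of -1.56 (SE 0.19, adjusted p = 5.45e-05). Top2a, the topoisomerase of replicating chromosomes, went from 1588 and 1344 to 429 and 444 CPM (-1.75), and Bub1b, a spindle checkpoint kinase, from 184 and 184 to 44.3 and 44.6 CPM (-2.04). Ccna2, the cyclin of S and G2 phase, went from 286 and 288 to 107 and 108 CPM (-1.42). In these 4 genes the groups were far apart relative to the gap between replicates. The D-type cyclins moved the other way. Ccnd2 rose from 319 and 417 to 831 and 992 CPM (1.31, adjusted p = 1.37e-04) and Ccnd1 from 71 and 72.4 to 131 and 152 CPM (0.98). Cdkn1b, an inhibitor of cyclin-dependent kinases, fell from 118 and 136 to 49.2 and 48.6 CPM (-1.37).

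Clustered histone genes, which are transcribed mainly in S phase, fell in number and size. Of 54 tested 33 were lower and 0 higher, with a median of -1.75. The summed level of all 68 listed went from 6482 and 6037 CPM to 1975 and 1922 CPM. Hist1h2bb went from 612 and 477 to 82.9 and 73.8 CPM (-2.79, adjusted p = 1.16e-06), and the linker histone gene Hist1h1b from 309 and 302 to 61 and 73.2 CPM (-2.18). Hist1h2bh (-3.54) and Hist1h2bf (-3.52) were among the 12 largest falls, taken among called genes whose groups did not overlap. Histone genes are near-identical copies, so reads may be split between them in ways the counting decides. Between 29 and 38 were called lower over the other fits.

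DNA repair and replication stress genes had 0 of 34 tested members higher and 11 lower, with a median of -0.93, and 5 lower without the first control. The 11 lower were 32.4% of those tested, against 6.91% of all genes. H2afx, whose phosphorylated product marks breaks, went from 95.1 and 98.7 to 37.8 and 34.3 CPM (-1.42, adjusted p = 8.72e-04). Exo1, an exonuclease of mismatch repair, went from 43.4 and 42.7 to 9.91 and 13.8 CPM (-1.83). A part of the p53 targets rose. Of 38 tested 15 were higher (39.5%) and 2 lower (5.3%), with a median of 0.82. Over all genes tested the shares were 9.19% and 6.91%. Without the first control 7 were higher and 1 lower, and the 2 lower calls were lost without the second control or the first AZA library. Ccng1, one of the most responsive p53 targets, rose from 343 and 353 to 1026 and 1042 CPM (1.57, adjusted p = 5.95e-06). Trp53inp1, which promotes p53-dependent death, rose from 68.7 and 62.7 to 339 and 402 CPM (2.49). Phlda3 rose from 3.75 and 4.21 to 22.7 and 22.4 CPM (2.42). Cdkn1a, the p21 inhibitor of the cell cycle, read 72.5 and 85.3 CPM in the controls and 174 and 187 CPM under AZA (1.19, adjusted p = 0.00845) and lost its call without the first control (adjusted p up to 0.0610). Bax (0.33, adjusted p = 0.553) and Bbc3 (1.15, adjusted p = 0.443), which open the mitochondrial path of apoptosis, were not called. Of 32 tested genes of cell death, 9 were higher and 0 lower, and 4 were higher without the first control and 3 without the second. The 9 were 28.1% of those tested, against 9.19% of all genes. Gsdmd, which forms pores in pyroptosis, rose from 53.4 and 32.1 to 180.1 and 148 CPM (1.93), and Mlkl, the effector of necroptosis, from 6.48 and 9.14 to 39.5 and 43.1 CPM (2.36).

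The stem cell list split. Of 22 tested genes 6 were lower and 3 higher, with a median of -0.25, and 1 was higher without the second control or either AZA library and 2 without the first control. In the fit given here the 6 lower were 27.3% and the 3 higher 13.6% of those tested, against 6.91% and 9.19% of all genes. Lgr5, the receptor that marks crypt base stem cells, stood at 156 and 186 CPM in the controls and 13 and 23.8 CPM under AZA, a log2 change of -3.20 (SE 0.27, adjusted p = 1.74e-06). Smoc2 went from 238 and 230.4 to 64.6 and 52.7 CPM (-1.99) and Aqp4, a water channel of the crypt base, from 229 and 216 to 27.2 and 28.3 CPM (-2.99). Lgr5, Smoc2 and Aqp4 had AZA libraries below both controls, as had 11 of the 22 tested and 29% of all genes tested. In 7 of the 22 they lay above. Olfm4, another stem cell marker, rose from 49.3 and 30.6 to 183 and 129.9 CPM (1.96, adjusted p = 0.0106), a call that DESeq2 did not make (adjusted p = 0.0538). The stem cell marker Ascl2 had 7 and 24 counts in the controls and 5 and 9 under AZA and was not called. Lrig1, a brake on growth factor receptors in crypt stem cells, fell from 194 and 194 to 96.2 and 95.8 CPM (-1.01). Myb, a transcription factor of crypt progenitors, was among the 12 largest falls, from 113 and 119 to 10.8 and 12.8 CPM (-3.27).

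Wnt targets had 4 of 23 tested members lower (17.4%) and 2 higher (8.7%), with a median of -0.23. Over all genes tested the shares were 6.91% and 9.19%. Fewer Wnt targets were lower without either control. Without the first control 3 were higher and without the first AZA library 1. Apc itself read 288 and 309 CPM in the controls and 224 and 237 CPM under AZA and was not called (-0.37, adjusted p = 0.162). Axin2, a feedback target of Wnt, was not called (-0.68, adjusted p = 0.183). In a fit of the 4 B6 organoid libraries alone both were called lower (adjusted p = 0.0481 for Apc and 0.0401 for Axin2). Myc was not called (-0.57, adjusted p = 0.452). Tiam1, a Rac activator, fell from 35.1 and 32.5 to 7.35 and 11 CPM (-1.85), and Cd44, a surface glycoprotein, rose from 36 and 52.1 to 134 and 134 CPM (1.60). Of 21 tested genes of the Wnt pathway itself, 2 were lower (9.5%, near the 6.91% of all genes) and 0 higher, and 1 was lower without either control or the first AZA library. Fzd5, the main Wnt receptor of the crypt, fell from 263 and 255 to 129 and 134 CPM (-0.98, adjusted p = 0.00141).

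Enterocyte genes rose almost without exception. Of 34 listed and tested genes, 31 were higher and 0 lower, with a median of 2.25, and in all 34 both AZA libraries lay above both controls (32% of all genes). Their summed level was 26163 and 20851 CPM in the controls and 69648 and 63996 CPM under AZA. Lct, the lactase of the brush border, stood at 22.8 and 5.66 CPM in the controls and 780.2 and 565 CPM under AZA, a log2 change of 5.53 (SE 0.43, adjusted p = 1.05e-06, 6.81 without the first control and 4.87 without the second control). Mep1b, a brush border protease, went from 27.4 and 19.3 to 605 and 538 CPM (4.60, adjusted p = 3.33e-08). Apoa1, the apolipoprotein of HDL, went from 140.4 and 94.6 to 2171 and 1347 CPM (3.90). Genes of uptake rose too. Slc15a1, the peptide transporter PepT1, went from 5.62 and 4.79 to 197 and 94.6 CPM (4.73, 4.11 without the first AZA library), and Fabp2, the intestinal fatty acid binding protein, from 973 and 828 to 5497 and 3704 CPM (2.35). The 3 that missed the threshold were Espn (0.87, adjusted p = 0.0829), Fabp1 (0.94, adjusted p = 0.132) and Dgat1 (0.51, adjusted p = 0.156), named after their values were seen. In the fit of the 4 B6 organoid libraries alone Espn (adjusted p = 0.0404) and Fabp1 (1.83e-04) were called higher, as was Fabp1 with no filter on low counts and Espn without the second AZA library (0.0472). Between 28 and 33 members were called higher over the other fits.

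Genes that metabolise drugs rose in most cases. Of 37 tested genes of xenobiotic and oxidative stress metabolism, 23 were higher and 0 lower, with a median of 0.97. Cyp3a11, the main drug-oxidising cytochrome P450 of the mouse gut, rose from 291 and 252 to 7060.3 and 4811 CPM (4.45, SE 0.27, adjusted p = 9.18e-08). Aldh1a1, which makes retinoic acid, rose from 77.1 and 52.3 to 604 and 442 CPM (3.01), and Cyp1a1, a target of the aryl hydrocarbon receptor, from 1.73 and 3.92 to 48.2 and 48.6 CPM (3.96, 4.58 without the second control). Gclm, a target of the oxidative stress factor NRF2, was not called (0.41, adjusted p = 0.315). The regional factor Cdx2, a master regulator of intestinal identity, fell from 105 and 110.2 to 28.4 and 37.4 CPM (-1.70, adjusted p = 0.00229), and Hnf4g, a factor of enterocyte genes, rose from 292 and 325 to 690.5 and 616 CPM (1.08).

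Genes of secretory cells rose in part. Of 22 tested Paneth cell genes 12 were higher (54.5%, against 9.19% of all genes) and 0 lower, with a median of 2.62. Lyz1, the lysozyme of Paneth granules, went from 269 and 206 to 3009 and 2469.9 CPM (3.52, SE 0.21, adjusted p = 9.18e-08). Mmp7, the protease that activates defensins, went from 4.18 and 5.95 to 191 and 90.7 CPM (4.72, 4.08 without the first AZA library), and Defa24, one of a family of near-identical defensin genes, from 198 and 121 to 1408 and 668 CPM (2.70, 2.06 without the first AZA library). The first AZA library was the higher one in all 3. Of 24 tested goblet cell genes 13 were higher and 0 lower, with a median of 0.90, and 7 were higher without the first control and 8 without the second. In the fit given here the 13 goblet cell genes higher were 54.2% of those tested, against 9.19% of all genes. Muc2, the gel-forming mucin, went from 17.3 and 20.2 to 59 and 57.9 CPM (1.63, adjusted p = 0.00177). Guca2a, which encodes guanylin, went from 177 and 108 to 1519 and 1021 CPM (3.15) and Tff3, the trefoil peptide, from 927 and 905 to 2132 and 2012 CPM (1.18). Spdef, a factor of goblet cell maturation, was not called (0.91, adjusted p = 0.333).

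Of 27 tested enteroendocrine genes 10 were higher (37.0%) and 1 lower (3.7%), with a median of 1.22. Chga, the granule protein chromogranin A, went from 91 and 118 to 387 and 421 CPM (1.95, adjusted p = 5.60e-05), and the incretin gene Gip from 138 and 161 to 683 and 681 CPM (2.19). Of the other defining markers, Chgb was called higher, and Neurod1 and Tph1 were not called. Neurod1 had 34 and 49 counts in the controls and 34 and 45 under AZA, and Tph1 91 and 144 against 95 and 162. The single gene called lower was Neurog3, the transient factor of endocrine progenitors, from 14.4 and 14.8 to 2.22 and 1.55 CPM (-2.76, adjusted p = 0.00224). The tuft cell markers Dclk1 and Avil were not called. Of 16 tested tuft cell genes 1 was higher (6.2%) and 0 lower, against 9.19% and 6.91% of all genes tested, with a median of -0.12. The call, of Ptpn6, was lost whichever of the 4 libraries was left out (adjusted p up to 0.337), and the markers Pou2f3 (-1.19, adjusted p = 0.668) and Trpm5 (1.86, adjusted p = 0.246) were not called.

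**Figure D3:**
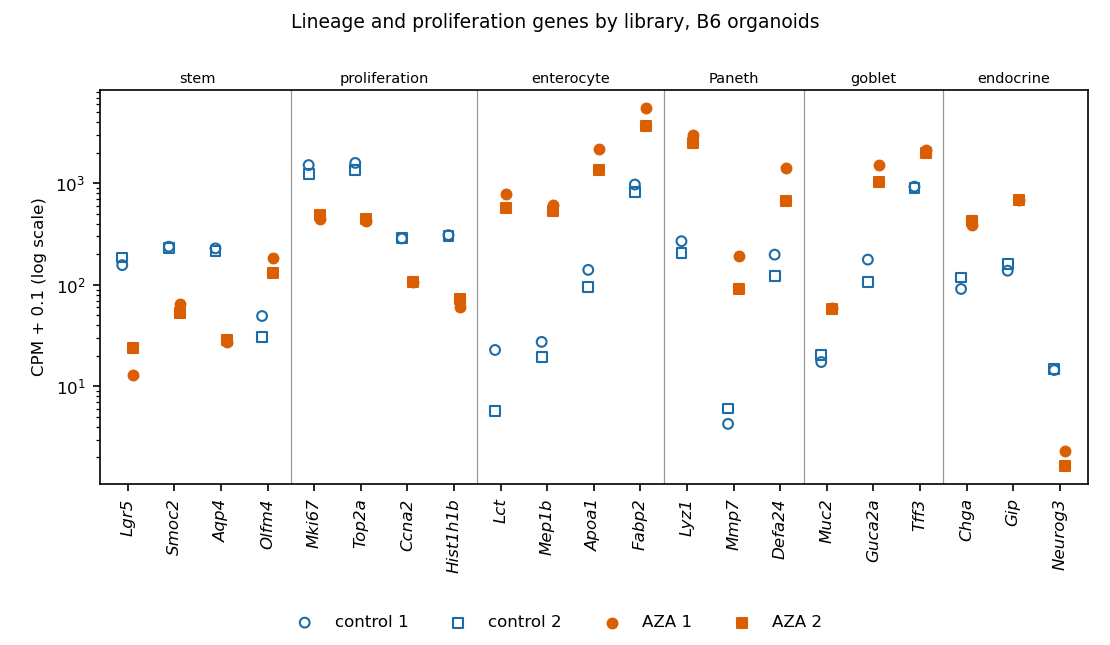
CPM with 0.1 added, on a log scale, of lineage and proliferation genes in each B6 organoid library (open blue marks controls, filled orange marks AZA, circle and square the replicate number). Lgr5, Smoc2, Aqp4, the 4 proliferation genes and Neurog3 lie lower under AZA, and Olfm4 and the enterocyte, Paneth, goblet, Chga and Gip values lie higher.

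Fetal and regenerative genes had 11 of 26 tested members higher and 1 lower, with a median of 1.24, and 17 were higher with no filter on low counts or in the fit of the 4 B6 libraries alone. Anxa1, an annexin of repairing epithelium, rose from 2.59 and 2.61 to 87.5 and 46 CPM (4.53), and S100a6, a calcium-binding protein, from 7.49 and 12.3 to 148 and 103 CPM (3.62, adjusted p = 2.69e-06). Dmbt1, a secreted scavenger receptor, was the member called lower, from 224 and 417 to 27 and 35 CPM (-3.36). Antimicrobial and inflammatory genes had 14 of 25 higher and 1 lower, with a median of 1.93, and 8 higher without the second control. Reg3b, a bactericidal lectin, rose from 10.7 and 2.18 to 343 and 166 CPM (5.24, 6.67 without the first control and 4.54 without the second control and 4.63 without the first AZA library), and Ccl20, a chemokine for lymphocytes and dendritic cells, from 2.16 and 3.34 to 41.5 and 58.1 CPM (4.03). Cxcl10, a chemokine that interferon induces, had 2 and 0 counts in the controls and 78 and 99 under AZA, a ratio of 105 (interval 28.7 to 874). Ccl28, a chemokine for plasma cells, was the member called lower, from 159.6 and 133 to 72.1 and 75.3 CPM (-0.99).

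Hypoxia and glycolysis genes had 10 of 23 tested members lower and 0 higher, with a median of -1.10. Without the first control 5 were lower, with no filter on low counts 21, and in the fit of the 4 B6 libraries alone 20. Adm, the vasodilator adrenomedullin, was among the 12 largest falls, from 22.8 and 20.6 to 1.03 and 1.21 CPM (-3.95, adjusted p = 0.00184). Hk2, the first enzyme of glycolysis, fell from 141 and 124 to 47.5 and 44.8 CPM (-1.51), and Slc2a1, a glucose transporter, from 151 and 188 to 43.7 and 61 CPM (-1.69). Ldha, lactate dehydrogenase, was not called (-0.60, adjusted p = 0.174), but was with no filter (0.00335) and in the B6 libraries alone (0.00393). Of 30 genes of ribosome biogenesis 13 were lower and 1 higher, with a median of -0.71, and 6 lower without the first control. Ncl, nucleolin, fell from 1851 and 1515 to 714 and 838 CPM (-1.12), and Dkc1, the dyskerin pseudouridine synthase, was the riser, from 187 and 176 to 379 and 383 CPM (1.07). The stress effector Ddit3 was not called (-0.39, adjusted p = 0.340). Of 41 genes of the ATF4 stress response 2 were higher (4.9%) and 12 lower (29.3%, against 6.91% of all genes), with a median of -0.40. Leaving out any 1 library brought those 12 down to between 3 and 6.

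Among the other large falls, Lipg, the endothelial lipase, went from 109 and 92.8 to 7.18 and 6.03 CPM (-3.87, adjusted p = 4.48e-06). Klhl23, a Kelch family gene, went from 54.7 and 57.9 to 2.56 and 4.48 CPM (-3.89). Hemgn, a gene of blood progenitors, read 20.6 and 14.4 CPM in the controls and 2.22 and 0 CPM under AZA, and its log2 change of -3.64 was -5.87 without the first AZA library and -2.83 without the second AZA library. Nhs read 11.4 and 6.39 CPM in the controls and 0.513 and 0.345 CPM under AZA (-3.64, adjusted p = 0.0134), a call lost without the first control or the second AZA library (adjusted p up to 0.133).

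**Figure D4:**
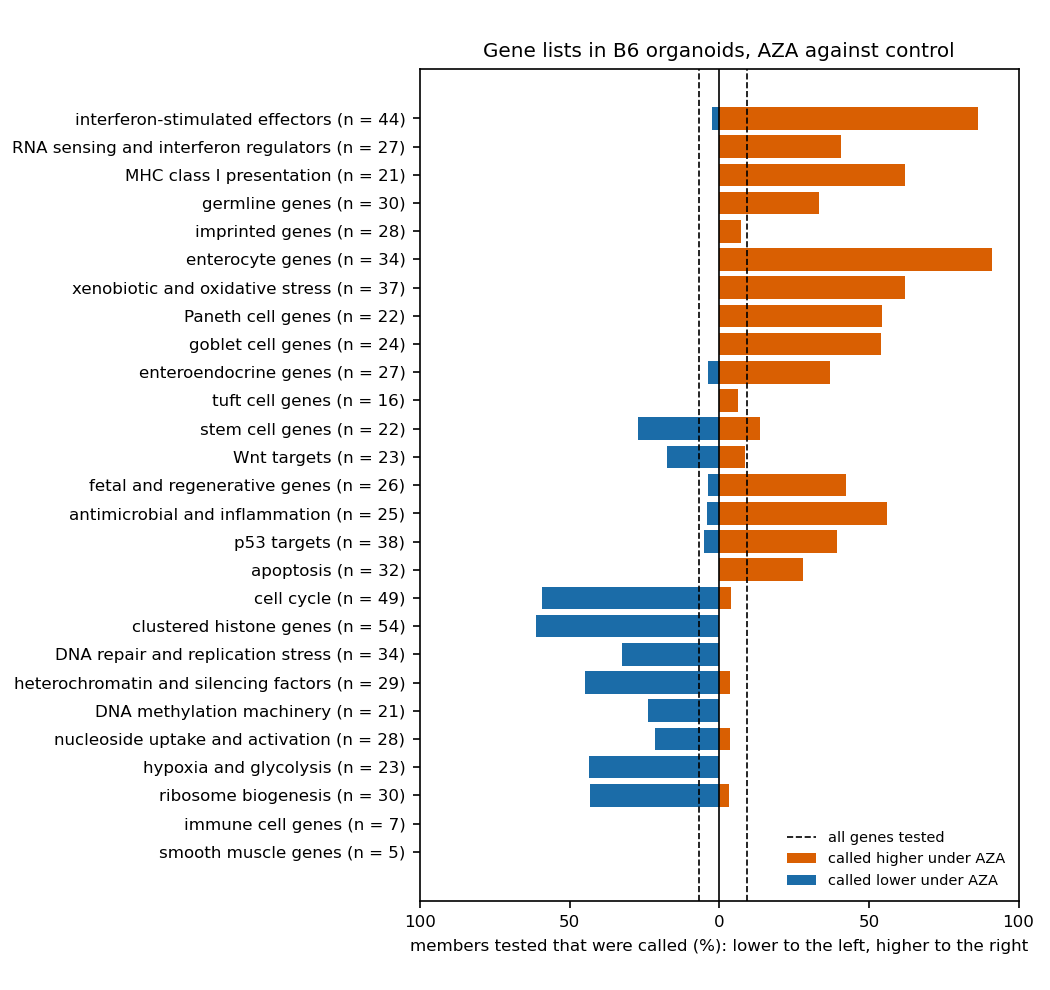
Share of the tested members of each gene list that was called higher (orange, to the right) or lower (blue, to the left) under AZA in B6 organoids, in percent, with the number tested in brackets and the shares of all 13395 genes tested as dashed lines (9.19% higher and 6.91% lower). Enterocyte genes and interferon-stimulated effectors reach farthest to the right, and clustered histone and cell cycle genes farthest to the left.

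Genes of cell types outside the epithelium had low levels. The summed level of all 19 listed immune cell genes was 16.7 and 9.58 CPM in the controls and 18.3 and 16.0 CPM under AZA. Of the 7 tested, 0 were called. Ptprc, the pan-leukocyte antigen CD45, had no counts in the controls and 7 and 18 under AZA and was not called in edgeR (adjusted p = 0.119) but was in DESeq2 (0.0360). Of 5 tested smooth muscle genes and 4 tested endothelial genes 0 were called, and 1 of 4 fibroblast genes was, Pdgfrb, with no counts in the controls and 29 and 19 under AZA. The Pdgfrb call was lost without either control (adjusted p up to 0.0880). The 10 listed genes of enteric nerve and glia summed to 9.65 and 19.7 CPM in the controls and 41.2 and 38.1 CPM under AZA. Of the 5 tested, 1 was higher, a call lost without the second AZA library. The part of such cells in the results was not tested.

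The C5 organoids served to ask whether the response was particular to B6. AZA and control libraries of C5 are separate from those of B6, and 1080 genes were higher (8.06%) and 869 lower (6.49%) in the same test. Of the genes higher in B6, 824 were also higher in C5, which is 66.9% of the B6 set and 76.3% of the C5 set. Of the genes lower in B6, 533 were also lower in C5 (57.6% and 61.3%), and 0 genes were called in opposite directions. The test of the difference itself called 0 of 13395 genes in edgeR (smallest adjusted p = 0.689, 609 genes at an unadjusted p under 0.05) and 0 in DESeq2. With no filter on low counts 34 genes were called, without the first B6 control 2, and without 1 of the C5 libraries between 6 and 26. These numbers do not show that the backgrounds respond alike.

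Interferon-stimulated effectors had a median log2 change of 4.10 in B6 and 2.50 in C5, with 38 and 28 of 44 called higher. The estimate was the larger one in B6 for 41 of the 44, and for 13 the difference had an unadjusted p under 0.05 while 0 passed after adjustment (smallest adjusted p 0.999). The summed level of the 44 tested in C5 was 1281 and 1376 CPM in the controls and 4010 and 2442 CPM under AZA. The C5 AZA libraries thus differed from each other. This sum leaves out the untested effectors that the B6 sum given above holds. Ifit1 changed by 5.81 in B6 and 5.25 in C5 on the log2 scale, and the B6 value was 5.19 without the second AZA library. Enterocyte genes had medians of 2.25 and 2.01, with 31 and 32 of 34 called higher. Clustered histone genes had medians of -1.75 and -1.90, and 31 were called lower in both. Lgr5 changed by -3.20 in B6 and -1.88 in C5, and Xist by 7.60 and 7.63. Muc2 changed by 1.63 in B6 (adjusted p = 0.00177) and 0.47 in C5 (adjusted p = 0.329), and the difference had an adjusted p of 0.999.

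**Figure D5:**
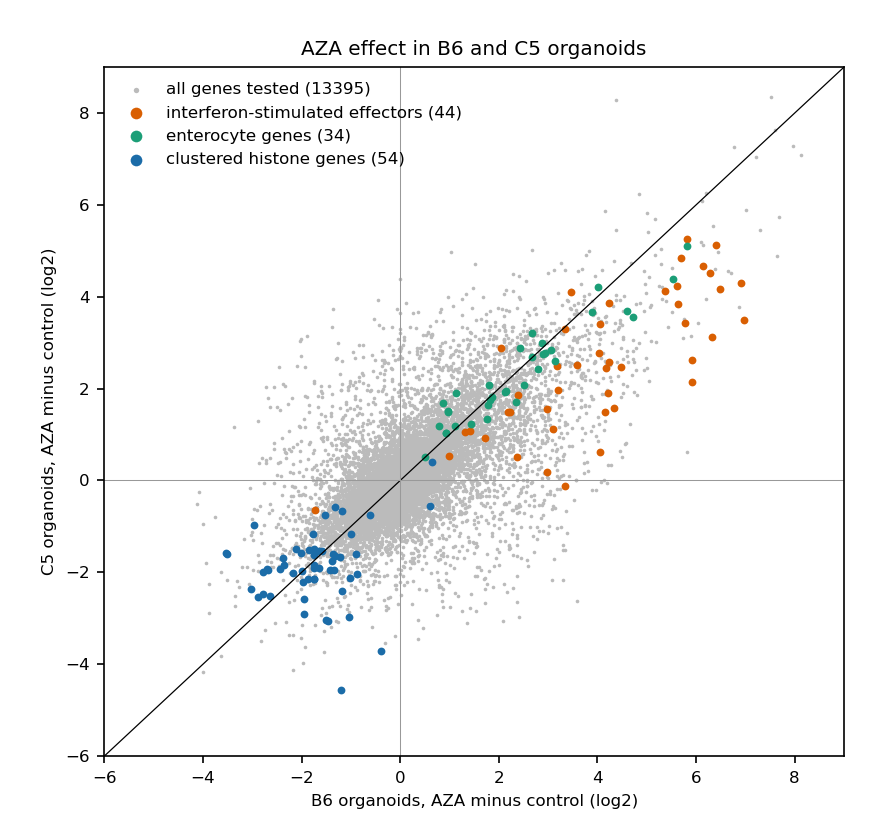
Log2 change under AZA of each tested gene in B6 organoids (horizontal) and C5 organoids (vertical), with 3 gene lists in colour and the line of equal change. Enterocyte genes lie along the line, and 41 of 44 interferon-stimulated effectors lie below it.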

How the data were processed

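RNA was depleted of ribosomal RNA and read as single reads. The authors deposited raw read counts per gene, made with BWA and HTSeq on mm10 per the submitters' processing notes. The tool versions, annotation and strand setting are not given in the sources used here. The 5 summary rows (unassigned reads), 46.9% to 58.6% of the reads counted in the B6 and 46.4% to 63.5% in the C5 organoid libraries, were taken out. Gene counts per organoid library of B6 were 6037109 to 6788600. Positions, promoters and symbols came from RefSeq tables of GRCm38.p6 (22550 genes matched by symbol, 1352 by synonym and 160 not at all).

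All 8 organoid libraries (4 groups of 2) were fitted in edgeR 4.0.16 (R 4.3.3) with TMM scaling, filterByExpr (minimum count 10, total 15), the quasi-likelihood test, a prior count of 2 and Benjamini-Hochberg adjustment over all 13395 genes tested at 0.05. The scripts were tested on simulated data. Alternatives used DESeq2 1.42.0, other scalings and filters, replicate blocks and fits without 1 library. Genes with no counts on 1 side were given as bounds against 3 counts over the group, and those with 1 to 3 as count ratios with exact 95% intervals. Within groups, chi-square per degree of freedom between replicates was 9.04 (control) and 12.1 (AZA); replicates thus differed by more than sampling noise.

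The comparison and the gene lists were chosen with earlier results of these data known. Named genes were the 12 largest rises and falls, up to 4 called members of each list by smallest p, the members of the methylation and nucleoside lists that the text turns on, Apc, defining markers, and the 10 genes with the highest counts among those silent on 1 side. Other genes named were chosen after their values were seen, for their known role. These are Ezh2, Eif2s3y, Uty, Mov10l1, Dazl, Stag3, Piwil2, Tuba3a, Sycp3, Syce2, Dhx58, Irf7, Mavs, Ifnar1, Tyk2, Ifnb1, Ifnl2, Ifnl3, Ifit1, Isg15, Rsad2, Ifitm2, Psmb8, H2-K1, Ciita, Mki67, Ccnd2, Ccnd1, Cdkn1b, Phlda3, Cdkn1a, Bax, Bbc3, Axin2, Myc, Apoa1, Fabp2, Espn, Fabp1, Dgat1, Cyp1a1, Gclm, Spdef, Neurog3, Anxa1, Cxcl10, Ccl28, Ldha and Ddit3.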

Additional observations from a re-analysis of the deposited data

Results flagged for a closer look

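Reads assigned to no gene made up 48.1% ± 2.42 (SD, n = 2) of all counted reads in the B6 control libraries and 56.8% ± 1.85 (SD, n = 2) in the AZA libraries. These reads belong to no gene in the table and enter no comparison, and both AZA libraries lay above both controls. In the C5 organoids the groups overlapped, with 54.8% and 45.7% in the controls and 54.7% and 63.1% under AZA. With 2 libraries a side no test was made of this difference. Which sequences the reads came from is not held in the counts and was not tested.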

How the results depend on the processing

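The fit was repeated with other scalings, filters, tests and sets of libraries. Of the genes tested, 2156 were called in the fit reported. Leaving out 1 library at a time gave 1149 to 1643 called, 708 to 953 higher and 441 to 690 lower, with more genes tested and a lone library assumed to vary like the other groups. Without either control the total fell by over 1.5 times (1149 and 1274). DESeq2 called 2349, a fit without the filter on low counts 2445, and a fit of the 4 B6 organoid libraries alone 2959. Replicate numbers were shared by control and AZA libraries, but same-numbered libraries did not deviate together (correlation of deviations -0.000293 in B6 and -0.0117 in C5). The numbers were therefore not used as pairs in the fit reported. With 2 libraries a group these correlations cannot show whether the numbers pair the cultures. With the replicate number as a block 2710 genes were called over all 8 organoid libraries, and 3381 (1605 lower) in the 4 B6 libraries alone, where Apc, Axin2, Ifnar1 and Uty were among the genes that gained a call. For the difference between C5 and B6, 0 genes were called in the fit reported, 21 with the block, 34 without the filter and 0 to 26 without 1 library. The genes absent in controls and present under AZA numbered 313 at a minimum of 5 counts and 52 at 20, against 126 at 10, and the mirror set 42 and 2, against 8. The cause of these shifts was not tested, except that a count minimum sets the last of them directly. Of 24062 genes, 10667 had too few counts to be tested at 6037109 to 6788600 gene counts a library.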

Other observations

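Several gene groups were not described above. Of 22 tested genes of cholesterol synthesis 4 were lower and 0 higher, with a median of -0.51, and 2 were lower without either control or the first AZA library and 8 without the second AZA library. In the fit given here the 4 lower were 18.2% of those tested, against 6.91% of all genes. With total-count scaling 10 were lower, with no filter on low counts 9, and in a fit of the 4 B6 libraries alone 12. Of 21 tested genes of the ER stress response 7 were higher and 0 lower, with a median of 0.37, and without the first control 2 were higher, without the second 3 and without either AZA library 4, as with total-count scaling. In the fit given here the 7 higher were 33.3% of those tested, against 9.19% of all genes. Herpud1, which helps to clear misfolded proteins, rose from 52.1 and 54.9 to 131 and 119 CPM (1.22). Of 6 tested Schlafen genes 2 were higher and 1 lower. The number higher was 1 without the second control or either AZA library, and the lower call was lost without the second control or the first AZA library. Slfn4, an interferon-responsive member, rose from 0 and 1.89 to 48.7 and 83.6 CPM (5.73, 4.91 without the first control and 7.73 without the second control).

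Of 294 tested genes named Zfp, which encode zinc finger proteins, 3 were higher (1.0%) and 8 lower (2.7%), with a median of -0.23. Over all genes tested the shares were 9.19% and 6.91%. Fewer Zfp genes were lower without either control. With total-count scaling 19 were lower, with no filter on low counts 13, and in the fit of the 4 B6 libraries alone 16. The number higher was 0 without the first control, 1 without the second AZA library and 5 in the fit of the 4 B6 libraries alone. Of 59 clustered protocadherin genes 19 had enough counts to test and 1 was called (5.3%, against 16.1% of all genes tested). That call was lost whichever of the 4 libraries was left out. Of 39 Hox cluster genes 3 had enough counts and 0 were called. Of 22 tested genes of epithelial identity and region 6 were higher and 3 lower, with a median of -0.01, and 1 was lower whichever of the 4 libraries was left out. Of 21 tested genes of Notch and BMP signalling 2 were higher and 2 lower, 9.5% each. These shares are near the 9.19% higher and 6.91% lower of all genes tested. The lower calls were lost without the first control and the higher calls without the second control.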
